A study of Homo sapiens with 29 samples.

Results

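Small nucleolar RNAs (snoRNAs) were followed across 29 RNA-seq libraries of 2 human prostate cancer cell lines treated with kinase inhibitors and an androgen receptor antagonist. The members were chosen by name and by level: rows of both count tables with a symbol starting SNORD or SNORA and a number, and a mean of at least 10 counts over the 24 C4-2 libraries. Of 474 such rows among 63677 features, 139 met the threshold, 77 of them C/D box snoRNAs (SNORD) and 62 H/ACA snoRNAs (SNORA). The choice used the mean counts of the C4-2 libraries, so those means are given here as a description only. Another 170 of the 474 rows had no count in any C4-2 library. Just inside the threshold lay SNORD62B, SNORA63 and SNORD82, with means of 10.04, 10.3 and 10.8 counts, and just outside it SNORD62A, SNORD38D and SNORA14A, with 9.92, 9.71 and 9.42.

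SnoRNAs guide chemical modification of ribosomal RNA. C/D box snoRNAs carry a C box near their 5′ end and a D box near their 3′ end, and direct 2′-O-methylation by the methyltransferase fibrillarin, while H/ACA snoRNAs end in an ACA box and direct pseudouridylation by dyskerin. Most human snoRNAs are cut out of introns of host genes after splicing, so a host and its snoRNA share a promoter but not a fate. A few, such as U3 (the SNORD3 genes), U14 (SNORD14), U17 (SNORA73) and U8 (SNORD118), act in cleavage of the ribosomal RNA precursor, and the SNORD116 copies of the imprinted Prader-Willi region have no established ribosomal target.

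C4-2 is a castration-resistant derivative of the LNCaP line, and 22Rv1 is a line from a relapsed prostate xenograft. Each treatment was 1 µM for 24 h in medium that retained hormones: NU7441 (a DNA-PK inhibitor), CC-115 (an inhibitor of DNA-PK and TOR kinase), CC-223 (a TOR kinase inhibitor) and the androgen receptor antagonist enzalutamide (Enza). The 8 C4-2 groups of 3 libraries were Ctrl (no agent named), NU7441, CC-115, CC-223, Enza, NU7441+Enza, CC-115+Enza and CC-223+Enza, and the 22Rv1 groups were Control (no agent, 3 libraries) and CC-115 (2 libraries). The labels do not say that replicates came from separate cultures, so p-values measure the spread between these libraries, which may be technical, and each line is a single cell population.

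Depth ran from 29.58 to 44.86 M counts per C4-2 library and from 31.61 to 44.91 M per 22Rv1 library (M, 1e6 counts). All 7 luminal prostate markers averaged at least 1 count per 1e6 library counts (CPM) in both lines (summed level 2922 to 11780 CPM in C4-2 libraries and 1396 to 1437 in 22Rv1). Of 3 fibroblast markers, 2 reached 1 CPM in C4-2 and 1 in 22Rv1, with sums of 2.15 to 12.6 and 2.25 to 12.5 CPM. Of 3 endothelial markers, 1 reached it in C4-2 (sums 0.566 to 4.58) and 0 in 22Rv1 (0.0442 to 0.123), with PECAM1 at 0 in both. None of 3 immune markers did, with sums of 0.0796 to 0.595 and 0.0613 to 0.221 CPM. Both Enza 1 and CC-115+Enza 1 differed from their own groups in snoRNAs. In Enza 1, 17 SNORD and 16 SNORA members were more than 1.5-fold above both other Enza libraries, and 18 and 15 were more than 1.5-fold below both. In CC-115+Enza 1, 11 SNORD and 7 SNORA members were above both others by that margin. All C4-2 groups share one estimate of the spread, so counts with both libraries removed are given beside the results they alter. In such bulk libraries fewer cells with a transcript and less of it per cell cannot be told apart.

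SnoRNA levels in these libraries were very uneven, and whether recovery depended on RNA length was not tested. SNORD3A, a U3 gene on chromosome 17, made up 95.4% of the summed SNORD level over the C4-2 libraries, and SNORA73B, a U17 gene in an intron of SNHG3, made up 45.8% of the summed SNORA level. Scaled to the length of the row, SNORD3A averaged 6744 CPM per kilobase in C4-2, SNORA73B 749.7, SNORD17 406.5, SNORA71A 187.1 and SNORD116-19 131.2. The SNORD3A row spans 699 bases and had no matched sequence, so its value describes the row. The median member was far lower, at 9.65 CPM per kilobase for SNORD and 11.3 for SNORA. The rows of SNORD118, SNORD13, SNORD14B, SNORD14C and SNORD14D had no counts, no row was matched to SNORA73A, and SNORD22 and SNORD3D did not reach the threshold. Of the members, 46 SNORD and 28 SNORA averaged fewer than 50 counts, which limits the precision of single members.

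By position in the tables' own hg19 coordinates, 68 SNORD and 54 SNORA lay in introns of a host gene on the same strand, 4 and 2 overlapped a host exon, and 5 and 6 had no host. Members with a host came from 84 hosts, of which 2 held 4 or more: SNHG14 with 23 SNORD116 copies and SNHG17 with SNORA71A to SNORA71D. The labelled classes held up in sequence. GENCODE release 29 transcripts with an unambiguous sequence were found for 133 members. On the snoRNA strand, 60 of 72 SNORD sequences (83.3%) held the C box core TGATGA within the first 20 bases, and 66 (91.7%) the D box CTGA within the last 15. Among 61 SNORA sequences, 1.64% and 4.92% held these, while 56 (91.8%) held ACA within the last 8 bases, compared with 15.3% of SNORD sequences.

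With CC-115 in C4-2 the called C/D box snoRNAs all fell, while H/ACA snoRNAs were called in both directions. The difference between the classes was not tested. Against Ctrl, 27 of 77 SNORD fell and 0 rose, whereas among 62 SNORA 9 rose and 11 fell. Of all 22860 features tested, 27.6% rose and 26% fell. Among SNORD the share that fell was 35.1% and none rose, and among SNORA 14.5% rose and 17.7% fell. The median log2 fold change was -0.37 for SNORD and 0.07 for SNORA, beside 0.03 for all features. In that edgeR quasi-likelihood fit a member was called at a Benjamini-Hochberg adjusted p below 0.05 over all features. Leaving out any 1 library of either group, 18 of the 27 SNORD falls, 5 of the 9 SNORA rises and 3 of the 11 SNORA falls kept their call. SNORA falls were 5 without CC-115 1 and 7 without Ctrl 1, Ctrl 3 or CC-115 2. Without Enza 1 and CC-115+Enza 1, 17 SNORA rose and 14 fell, and 1 SNORD rose and 30 fell.

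**Figure D1:**
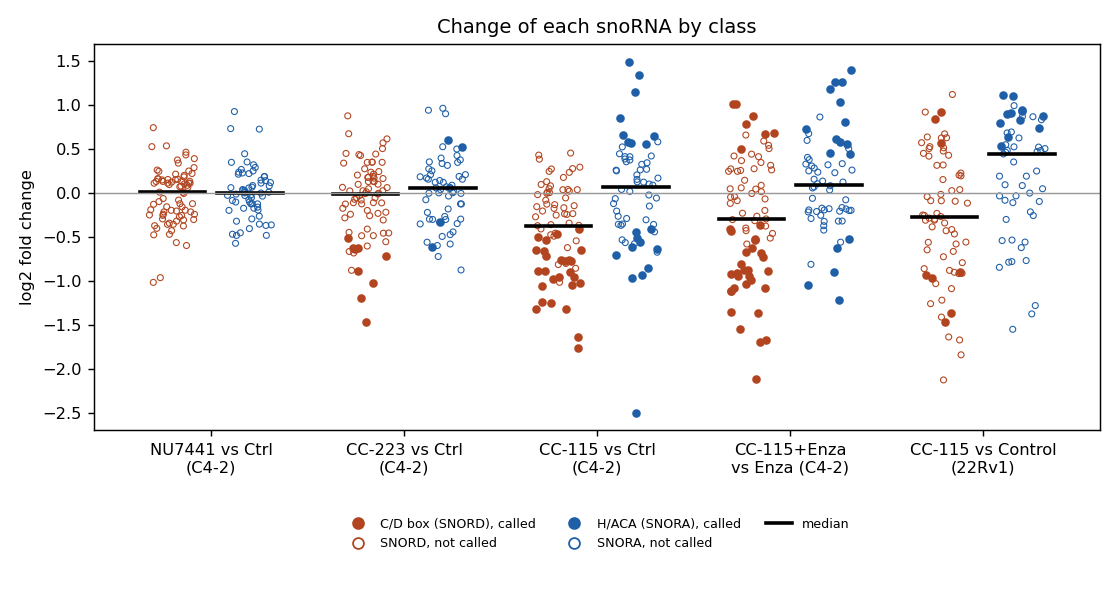
Log2 fold change (vertical axis) of each tested SNORD (red) and SNORA (blue) in 5 comparisons; filled points were called at adjusted p below 0.05 and black bars are medians. SNORD medians lie below SNORA medians for CC-115 in C4-2 (-0.37 and 0.07), for CC-115+Enza against Enza (-0.29 and 0.10) and for CC-115 in 22Rv1 (-0.27 and 0.45).

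Among snoRNAs that act in precursor cleavage, the U3 rows SNORD3B-1 and SNORD3B-2 fell, while SNORD3C and the dominant SNORD3A did not pass the test. SNORD3B-2 (chr17:18966762-18967449, minus strand) stood at 7.52, 8.83 and 7.85 CPM in the Ctrl libraries and at 2.58, 2.69 and 2.54 in the CC-115 libraries. Its groups did not overlap, and it fell by 1.63 on the log2 scale (SE 0.17, edgeR adjusted p = 5.4e-09). SNORD3B-1 (chr17:18965225-18965807) stood at 3.19, 3.91 and 3.01 CPM in Ctrl and 1.56, 1.42 and 1.27 with CC-115, a log2 change of -1.25 (SE 0.17, edgeR adjusted p = 5.59e-07). SNORD3A (chr17:19091329-19092027) held 4538, 5876 and 4714 CPM in Ctrl and 4502, 4074 and 4300 with CC-115. All CC-115 values were below all Ctrl values, but the log2 change of -0.23 (SE 0.22) did not pass the test (edgeR adjusted p = 0.399). SNORD3C stood at -0.05 (SE 0.35, edgeR adjusted p = 0.912). These rows span 581 to 699 bases and belong to near-identical U3 copies. How reads that match several copies were counted is not given in the sources used here, so the split of counts between the U3 rows is uncertain.

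The U14 snoRNAs SNORD14A and SNORD14E are printed because they are 76.9% identical copies of one cleavage and methylation guide in separate hosts, RPS13 and HSPA8, with different values. Capitals mark the C box core and the D box.
SNORD14A: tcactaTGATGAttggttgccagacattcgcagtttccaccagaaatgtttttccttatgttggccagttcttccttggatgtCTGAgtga
SNORD14E: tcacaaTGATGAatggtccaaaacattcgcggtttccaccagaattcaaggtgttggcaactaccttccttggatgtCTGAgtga
SNORD14E (chr11:122928785-122928869) was at 2.56, 2.30 and 2.56 CPM in Ctrl and at 0.852, 1.05 and 1.09 with CC-115, and fell by 1.31 (SE 0.19, edgeR adjusted p = 1.56e-06). SNORD14A (chr11:17096201-17096291) was at 2.60, 2.27 and 2.34 CPM in Ctrl and 2.26, 1.77 and 2.04 with CC-115. Its CC-115 values were all lower, but the log2 change of -0.25 (SE 0.21) did not pass the test (edgeR adjusted p = 0.348). The difference between both copies was not tested. Neither host was called: HSPA8 stood at -0.26 (edgeR adjusted p = 0.197) and RPS13 at 0.00 (0.984).

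**Figure D2:**
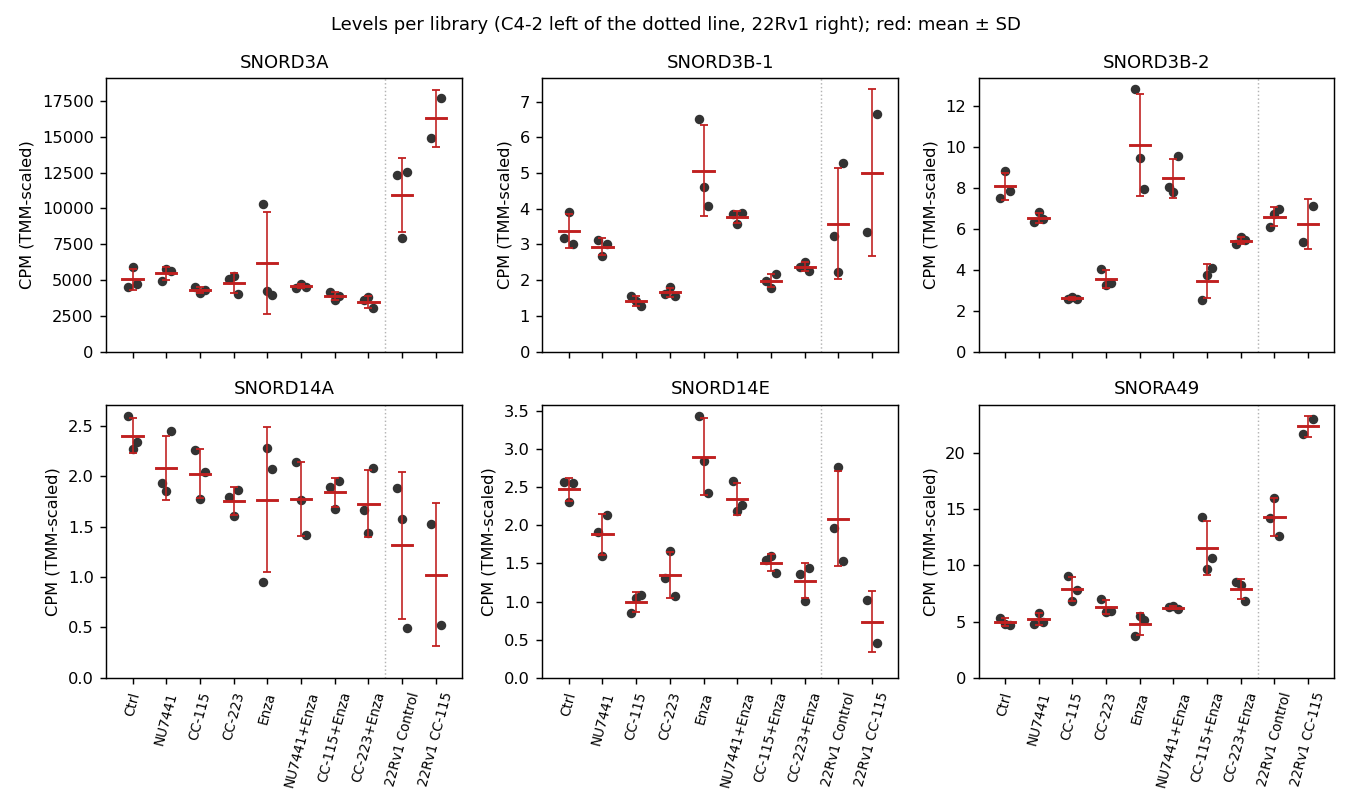
TMM-scaled CPM (vertical axis, from 0) of 6 snoRNAs in every library of the 10 groups; black points are libraries, red bars the group mean and SD. SNORD3B-2 and SNORD14E are low in the CC-115 and CC-223 groups of C4-2, SNORA49 is high with CC-115 in both lines, and SNORD3A is high in 1 Enza library at 10320 CPM; the lines were scaled separately.

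SNORD12, SNORD12B and SNORD12C, methylation guides spaced along introns of ZFAS1 (chromosome 20), and SNORD99, in an intron of SNHG12 (chromosome 1), fell while their hosts rose. They are shown because host and snoRNA come from one transcript. SNORD83A, in an intron of the ribosomal protein gene RPL3, is shown beside them because it fell with no called change of its host. No TGATGA was found in the first 20 bases of SNORD99.
SNORD12: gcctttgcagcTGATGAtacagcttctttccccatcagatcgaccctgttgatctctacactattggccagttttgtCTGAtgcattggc
SNORD12B: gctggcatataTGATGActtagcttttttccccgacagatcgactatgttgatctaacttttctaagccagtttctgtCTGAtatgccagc
SNORD12C: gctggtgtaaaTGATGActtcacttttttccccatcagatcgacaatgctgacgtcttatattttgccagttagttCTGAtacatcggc
SNORD99: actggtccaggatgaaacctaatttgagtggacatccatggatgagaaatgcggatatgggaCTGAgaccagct
SNORD83A: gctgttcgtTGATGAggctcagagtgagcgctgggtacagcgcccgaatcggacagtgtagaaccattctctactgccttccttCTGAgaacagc
SNORD12B went from 7.01, 6.28 and 6.04 CPM in Ctrl to 3.02, 3.22 and 3.31 with CC-115, a log2 change of -1.01 (SE 0.15, edgeR adjusted p = 1.45e-06). SNORD12 and SNORD12C changed by -0.76 and -0.77, and ZFAS1 itself rose by 3.57 (edgeR adjusted p = 3.43e-15). In none of these 3 snoRNAs did the Ctrl and CC-115 libraries overlap. SNORD99, a low-count member outside the naming rule and named after its values were seen, went from 1.28, 1.74 and 1.03 CPM to 0.264, 0.430 and 0.477. It fell by 1.76 (SE 0.27, edgeR adjusted p = 3.9e-06), while SNHG12 rose by 1.95 (7.62e-12). SNORD83A went from 2.74, 2.46 and 1.87 CPM to 0.734, 0.859 and 1.38, a log2 change of -1.24 (SE 0.23, edgeR adjusted p = 5.99e-05), with RPL3 at 0.34 (0.0783).

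ZFAS1 and SNHG12 were the only called rises among hosts of fallen SNORD. The fallen SNORD members had 17 distinct tested hosts, of which 2 rose, 9 fell and 6 were not called. Members of SNORD without a call had 27 tested hosts, of which 8 rose and 9 fell. Of all features 27.6% rose and 26% fell. SNORA13 showed the same opposition among H/ACA members: it fell by 0.55 (SE 0.18, edgeR adjusted p = 0.0116) while its host EPB41L4A-AS1 rose by 4.04 (2.11e-15). The SNORA13 call was lost without CC-115 1 (edgeR adjusted p = 0.108). For the 8 tested hosts of risen SNORA, 4 rose and 0 fell, and for the 9 hosts of fallen SNORA, 5 rose and 3 fell. For the 32 hosts of SNORA without a call, 9 rose and 11 fell. Whether host and snoRNA calls go together was not tested. The rows were counted as exons of their own, and whether some reads come from unspliced host introns was not tested.

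**Figure D3:**
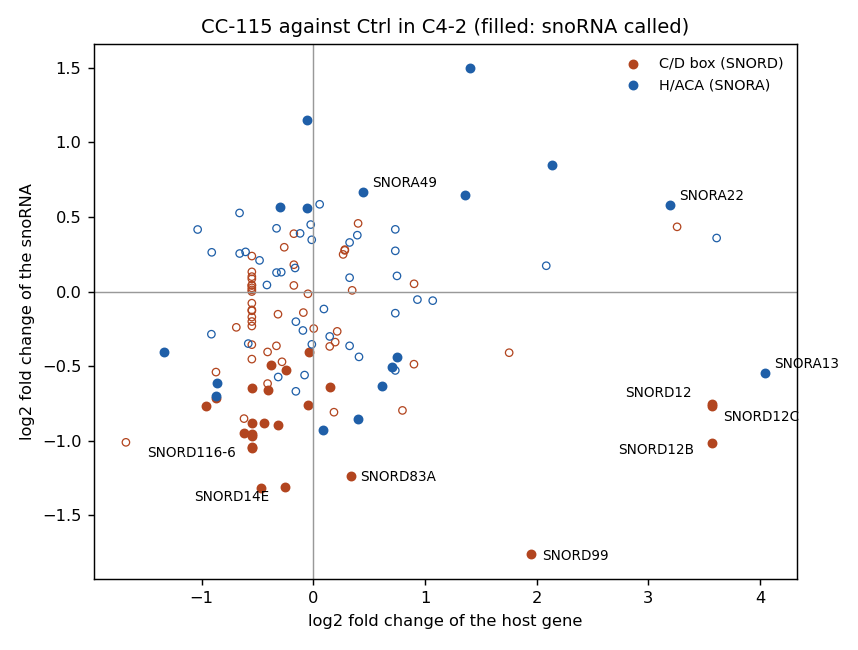
Log2 fold change of each snoRNA (vertical axis) against that of its host gene (horizontal axis) for CC-115 against Ctrl in C4-2; red SNORD, blue SNORA, filled where the snoRNA was called. SNORD12, SNORD12B, SNORD12C and SNORD99 lie at the lower right, with hosts up by 3.57 and 1.95; the column at -0.55 holds the SNORD116 copies of SNHG14.

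Within the SNORD116 cluster of SNHG14 on chromosome 15 the CC-115 falls were unevenly spread. SNORD116-1, SNORD116-2, SNORD116-3, SNORD116-6 and SNORD116-7 fell, 5 of the 7 members numbered 1 to 9. The call of SNORD116-3 was lost without Ctrl 2, CC-115 1 or CC-115 3 (edgeR adjusted p up to 0.122). No member of the 11 numbered 11 to 24 was called, and 1 of the 5 numbered 25 to 30 fell, SNORD116-27. Medians of the 3 sets were -0.95, 0.03 and -0.17. Copies from both ends of the cluster and the middle are printed to show how alike they are: identity had a median of 95.8% within numbers 1 to 9, 92.4% within 11 to 24, and 85.3% between those sets. Copies 25 to 30 were less alike, at 79.2% among themselves, 69.5% to numbers 1 to 9 and 71.7% to numbers 11 to 24.
SNORD116-1: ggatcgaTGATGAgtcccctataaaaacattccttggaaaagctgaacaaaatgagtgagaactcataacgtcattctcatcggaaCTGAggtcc
SNORD116-6: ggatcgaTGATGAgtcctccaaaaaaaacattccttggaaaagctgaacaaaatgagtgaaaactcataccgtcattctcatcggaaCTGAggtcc
SNORD116-13: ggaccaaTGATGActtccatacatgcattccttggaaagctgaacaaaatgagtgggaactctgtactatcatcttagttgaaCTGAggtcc
SNORD116-19: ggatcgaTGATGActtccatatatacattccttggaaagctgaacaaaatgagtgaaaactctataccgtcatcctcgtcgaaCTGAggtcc
SNORD116-27: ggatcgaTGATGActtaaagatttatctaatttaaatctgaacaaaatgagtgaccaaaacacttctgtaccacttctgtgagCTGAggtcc
SNORD116-6 was at 4.83, 4.32 and 3.90 CPM in Ctrl and 2.38, 1.91 and 2.02 with CC-115, a log2 change of -1.05 (SE 0.19, edgeR adjusted p = 3.79e-05). SNORD116-19, the most abundant copy, was at 13.3, 10.6 and 10.25 CPM in Ctrl and 11.1, 12.4 and 13.02 with CC-115. Those groups overlapped, and its log2 change was 0.10 (SE 0.20, edgeR adjusted p = 0.706). SNHG14 fell by 0.55 (edgeR adjusted p = 0.000176).

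The counts of single SNORD116 copies need care. SNORD116-3 and SNORD116-9 have the same sequence, as do SNORD116-17 and SNORD116-19, yet SNORD116-17 averaged 36.2 counts and SNORD116-19 averaged 436.0. Their log2 changes with CC-115 were -0.45 and 0.10, and those of SNORD116-3 and SNORD116-9 were -0.88 and -0.36. Reads that separate such copies must extend past the mature sequence or have been assigned by a rule not given in the sources used here. Among the 133 members with a sequence, which do not include the U3 rows, 23 were at least 90% identical to another.

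**Figure D4:**
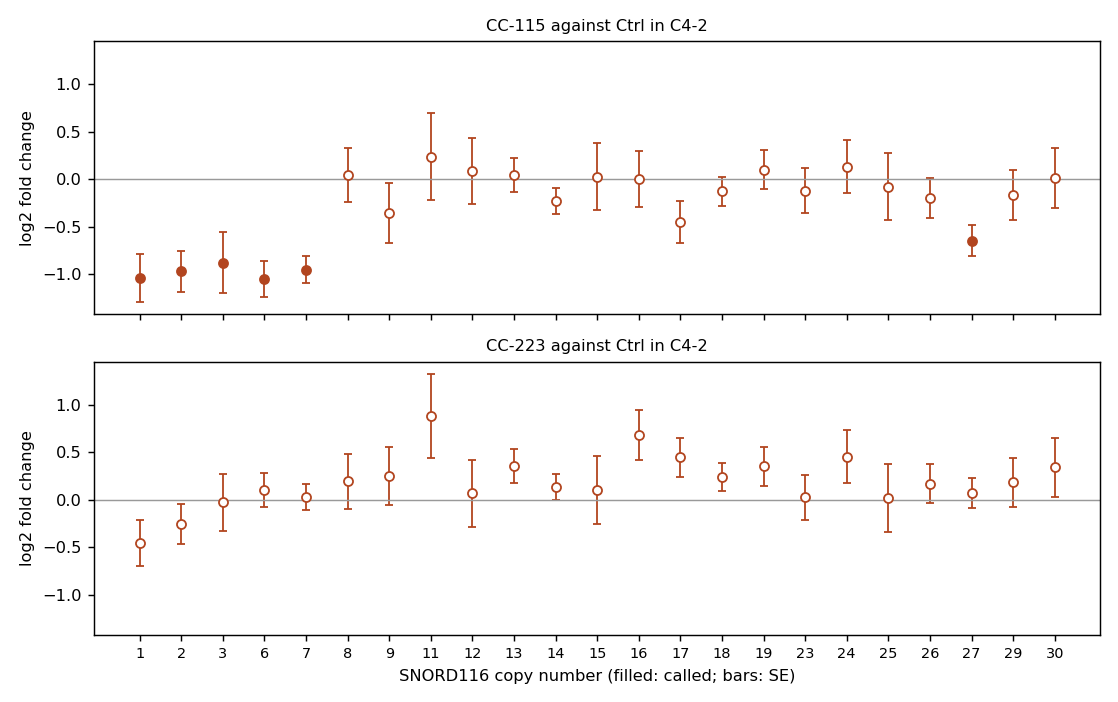
Log2 fold change (vertical axis) of the 23 SNORD116 members by copy number (horizontal axis) for CC-115 (upper panel) and CC-223 (lower panel) against Ctrl in C4-2; bars are SE and filled points were called. With CC-115 the called copies are numbers 1, 2, 3, 6, 7 and 27; with CC-223 none was called.

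The H/ACA members that rose with CC-115 were led, among those with at least 50 counts, by SNORA49, SNORA7B, SNORA22, SNORA12 and SNORA80D. SNORA49 and SNORA73B are printed as the clearest rise and the most abundant H/ACA member; capitals mark the ACA box.
SNORA49: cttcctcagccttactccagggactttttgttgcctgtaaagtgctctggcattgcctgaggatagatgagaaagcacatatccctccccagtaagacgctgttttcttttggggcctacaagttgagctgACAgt
SNORA73B: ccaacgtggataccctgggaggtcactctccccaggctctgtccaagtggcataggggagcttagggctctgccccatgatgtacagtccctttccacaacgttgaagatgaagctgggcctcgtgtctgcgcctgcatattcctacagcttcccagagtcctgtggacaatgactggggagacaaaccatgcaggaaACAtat
SNORA49 (chr12:132515769-132515904, in an intron of EP400) was at 5.34, 4.83 and 4.74 CPM in Ctrl and 9.04, 6.87 and 7.77 with CC-115. Its groups did not overlap, and it rose by 0.67 (SE 0.15, edgeR adjusted p = 0.000586). SNORA73B was at 129.2, 131.9 and 126.4 CPM in Ctrl and 158.6, 134.8 and 130.7 with CC-115, a log2 change of 0.13 (SE 0.15, edgeR adjusted p = 0.48). SNORA22 and SNORA7B rose by 0.58 and 0.65, SNORA80D by 0.56. SNORA12 rose by 0.57, but its call was lost when any of Ctrl 1, Ctrl 2, Ctrl 3 or CC-115 1 was left out, with edgeR adjusted p up to 0.113. On the other side SNORA31B, which has no host, went from 6.65, 5.55 and 5.60 CPM to 3.32, 2.93 and 2.92, a log2 change of -0.96 (SE 0.14, edgeR adjusted p = 1.39e-06).

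Summed levels separated in some sets of members and not in others. SNORD under 100 bases, without SNORD116 and whatever their position, summed to 63.0 to 70.6 CPM in Ctrl and 46.3 to 47.2 with CC-115, with no overlap. All SNORD outside the SNORD3 and SNORD116 rows averaged 148.2 CPM (SD 7.06, n = 3) in Ctrl and 150.1 (SD 8.80, n = 3) with CC-115, and SNORD without SNORD3A overlapped, at 201.2 to 216.7 and 187.3 to 205.4 CPM. With the most abundant member of each class removed, the SNORA to SNORD ratio was 0.800 to 0.816 in Ctrl and 0.888 to 0.972 with CC-115. SNORD17, of 237 bases, averaged 96.3 CPM over the C4-2 libraries and is part of this ratio and of the wider SNORD sums. These therefore lean on 1 member and do not describe the typical SNORD. The summed SNORD116 level was 45.1 to 50.7 CPM in Ctrl and 39.1 to 42.4 with CC-115. These sums were not tested, since the members share libraries and hosts.

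Other short nuclear RNAs moved in C4-2 as well. Of 14 small Cajal body RNAs (SCARNA), 9 rose and 1 fell with CC-115, where 27.6% of all features rose and 26% fell. Their median log2 change was 0.47, and 7SK RNA rose by 0.49 (SE 0.15, edgeR adjusted p = 0.00882). With CC-223, 5 SCARNA rose and 0 fell, with a median of 0.38, and 7SK rose by 0.44 (edgeR adjusted p = 0.0385). Between CC-115 and CC-223, 1 SCARNA was called, and 7SK differed by 0.05 (edgeR adjusted p = 0.824). The part of SCARNA and 7SK in the snoRNA changes was not tested. For CC-115 against Ctrl with library scaling computed without short features and mitochondrial RNA, 0 SNORD rose and 29 fell, and 7 SNORA rose and 12 fell.

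Genes of the snoRNA particles were taken from a list, and their counts stand beside the 26% of all features that fell and the 27.6% that rose. All 4 C/D core genes fell with CC-115 in C4-2: FBL, the methyltransferase, by 0.64, NOP56 by 0.75, NOP58 by 0.41 and SNU13 by 0.65. Of the 4 H/ACA core genes 3 fell, with NOP10 lowest at -1.21 (SE 0.18, edgeR adjusted p = 3.31e-06), DKC1 at -0.40 and NHP2 at -0.34, while GAR1 stood at -0.10 (0.611). Among 9 tested assembly factors 1 rose and 4 fell. Among 6 processing genes, DBR1, the lariat debranching enzyme that frees intronic snoRNAs, fell by 1.12 and the cap hypermethylase TGS1 by 0.65, while the exonucleases XRN1 and XRN2 rose by 0.80 and 0.45.

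CC-223 changed fewer snoRNAs than CC-115, and also fewer features of all kinds. Against Ctrl, 0 SNORD rose and 9 fell (11.7%, near the share of all features). Among SNORA 2 rose and 2 fell (3.23% each), where 12.9% of all features rose and 10.9% fell. The SNORD median was -0.01 and the SNORA median 0.06. SNORD3B-2 stood at 4.05, 3.24 and 3.33 CPM with CC-223, below every Ctrl library, and fell by 1.19 (SE 0.16, edgeR adjusted p = 8.78e-06). SNORD3B-1 fell by 1.02, SNORD14E by 0.88, SNORD46 by 0.71, SNORD60 by 0.63, SNORD83A by 0.62 and SNORD12B by 0.51. SNORA31B fell by 0.61 and SNORA74D by 0.33. Among SNORA, SNORA7B and SNORA22 rose by 0.60 and 0.53. No SNORD116 copy was called, with a median of 0.17. Each SNORD fall but 2 of the 9 kept its call with every library left out in turn, and neither SNORA rise did: the call of SNORA7B was lost without any of the 6 libraries, and that of SNORA22 without any but CC-223 3. SNORD83A was one of those 2: it lost its call in every omission but that of Ctrl 3, with an edgeR adjusted p of up to 0.156. SNORA74D lost its call without Ctrl 1, CC-223 1 or CC-223 3 (up to 0.106). Without Enza 1 and CC-115+Enza 1 the SNORD counts were 4 up and 11 down, and the SNORA counts 6 up and 7 down. Among the particle genes, NOP56 fell by 0.43 in the C/D core and 0 of 4 H/ACA core genes were called.

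NU7441 changed no snoRNA by the same test. Of 139 members 0 were called against Ctrl, where 2.28% of all features rose and 1.11% fell; 6 SNORD and 5 SNORA had an unadjusted p below 0.05 in the edgeR fit, and DESeq2 called 1 SNORD. Medians were 0.01 for SNORD and 0.00 for SNORA. SNORD3B-2 stood at 6.31, 6.82 and 6.47 CPM with NU7441 and SNORD14E at 1.91, 1.595 and 2.14, all below the lowest Ctrl library, but neither passed. Without Enza 1 and CC-115+Enza 1, 9 members were called (3 SNORD and 3 SNORA down, 1 and 2 up), and 1 without NU7441 1. No particle gene of the list was called. NU7441 and CC-223 were given at the same dose and time; SNORD3B-1 and SNORD3B-2 were higher with NU7441 by 0.82 (95% interval 0.49 to 1.15) and 0.89 (0.56 to 1.21), the only members called of 139, against 3.2% of features higher and 4.12% lower.

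CC-115 and CC-223 were compared at the same dose and time. With CC-115, 20 SNORD were lower (26.0%, near the share of all features) and 1 higher than with CC-223, and 1 SNORA was lower and 2 higher, where 20.5% of all features were higher and 22.7% lower. Of the lower SNORD, 9 were SNORD116 copies. SNORD116-6 held 4.81, 4.67 and 4.53 CPM with CC-223, more than the 1.91 to 2.38 CPM with CC-115, a difference of -1.15 (95% interval -1.53 to -0.78, edgeR adjusted p = 1.84e-05). SNORD116-7 differed by -0.98 and SNORD116-27 by -0.72, and SNORA84 was higher with CC-115 by 0.68. SNORD12C and SNORD12B differed by -0.60 and -0.51, but SNORD12C lost its call without CC-115 1, CC-115 3, CC-223 1 or CC-223 2 (edgeR adjusted p up to 0.106) and SNORD12B without CC-115 1 or CC-223 1 (up to 0.068). For other members the difference did not pass: SNORD3B-1 at -0.23 (95% interval -0.59 to 0.12), SNORD46 at -0.05 (-0.44 to 0.35) and SNORD60 at 0.10 (-0.17 to 0.37). These intervals leave room for differences in either direction. The count of lower SNORD was 7 without CC-115 1, CC-115 2, CC-223 1 or CC-223 2, 11 without CC-115 3 and 10 without CC-223 3, and 5 of the 20 kept their call throughout. Without CC-223 1, 3 SNORD and 4 SNORA were higher, and without CC-115 1 or CC-223 2 no SNORA was lower. Without Enza 1 and CC-115+Enza 1 it was 26.

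Against NU7441, CC-115 gave 22 lower and 1 higher SNORD and 6 lower and 6 higher SNORA, where 24.5% of all features were higher and 24.5% lower. SNORD3B-2 differed by -1.33, SNORD116-6 by -1.13, SNORD3B-1 by -1.05, SNORD116-7 by -1.03, SNORD14E by -0.91 and SNORD116-27 by -0.78, and SNORA7B, SNORA49, SNORA84 and SNORA80D were higher by 0.67, 0.60, 0.45 and 0.44. SNORA7B lost its call without NU7441 1 (edgeR adjusted p = 0.0889) and SNORA84 without CC-115 1 (0.0622). SNORD63B was the 1 higher SNORD, by 0.47, and lost its call without NU7441 1, NU7441 2, CC-115 1 or CC-115 2 (up to 0.133). SNORA falls were 3 without CC-115 1 or CC-115 3. The comparison uses the same CC-115 libraries as the others, so it is no separate support for them.

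The calls for Enza against Ctrl depended on several single libraries. With all libraries 5 SNORD rose and 1 fell and 6 SNORA rose and 1 fell, where 9.35% of all features rose and 6.75% fell. Without Enza 1 the counts were 0 SNORD up and 1 down and 0 SNORA up and 1 down. In Enza 1 SNORD17 stood at 297.8 CPM and in the other Enza libraries at 66.3 and 70.5, beside 62.0 to 72.9 in Ctrl, and SNORA71A at 67.1 and otherwise at 21.6 and 23.1. Other members of that library were low: SNORA12 was at 1.63 CPM, against 5.50 and 5.32, and SNORD116-19 at 3.73, against 11.2 and 10.1. None of the 13 calls held with each library left out in turn. Total calls were 3 without Ctrl 1, 5 without Ctrl 2, 3 without Ctrl 3, 27 without Enza 2 and 24 without Enza 3.

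With enzalutamide present, more SNORD fell than rose with CC-115. Against Enza, 29 SNORD fell and 7 rose, and 5 SNORA fell and 12 rose, where 28.5% of all features rose and 30.2% fell. Medians were -0.29 and 0.10. These libraries are separate from those of CC-115 and Ctrl, and 20 SNORD fell in both comparisons, 74.1% of the 27 and 69.0% of the 29. Of the SNORA rises 5 were shared, 55.6% of 9 and 41.7% of 12: SNORA12, SNORA22, SNORA49, SNORA59A and SNORA80D. The overlap over all features was not counted, so these shares cannot be read as particular to snoRNAs. SNORD3B-2 stood at 12.8, 9.46 and 7.95 CPM with Enza and 2.53, 3.75 and 4.08 with CC-115+Enza, and fell by 1.54 (SE 0.16, edgeR adjusted p = 6.02e-09). SNORA49 rose by 1.26 (SE 0.15, edgeR adjusted p = 8.67e-08), from 3.70, 5.53 and 5.15 CPM to 14.3, 9.72 and 10.6. SNORD12C fell by 1.08, SNORD83A by 1.04 and SNORD14E by 0.94.

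Some calls with enzalutamide depended on Enza 1. SNORD3A fell by 0.67 (SE 0.22, edgeR adjusted p = 0.0124), but its groups overlapped and the call was lost without Enza 1 (edgeR adjusted p = 0.867) or CC-115+Enza 2. Without Enza 1, 18 SNORD fell and 11 rose, and 3 SNORA fell and 19 rose; without CC-115+Enza 2, 19 SNORD fell and 3 SNORA fell; without CC-115+Enza 1, 4 SNORD rose. With both Enza 1 and CC-115+Enza 1 removed, 18 SNORD fell and 6 rose, and 3 SNORA fell and 12 rose. Leaving out any 1 library, 14 of the 29 SNORD falls and 4 of the 7 SNORD rises kept their call. For SNORA 9 of the 12 rises and 2 of the 5 falls did. In every setting 11 SNORD falls, 0 SNORD rises, 7 SNORA rises and 2 SNORA falls were called. SNORD116 copies split, with 5 up and 5 down: SNORD116-2, SNORD116-6 and SNORD116-7 fell by 0.91, 0.81 and 0.72, while SNORD116-14 rose by 0.51. Of the 4 C/D core genes and the 4 H/ACA core genes, 3 of each fell.

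CC-223+Enza against Enza gave 12 lower and 4 higher SNORD and 4 lower and 6 higher SNORA, where 13% of all features rose and 15% fell. SNORD14E fell by 1.18, SNORD3B-1 by 1.09 and SNORD3B-2 by 0.89. The 4 SNORD that rose were SNORD116 copies, SNORD116-19 by 0.71, SNORD116-13 by 0.70, SNORD116-18 by 0.67 and SNORD116-14 by 0.50. SNORD116-14 lost its call without Enza 3 (edgeR adjusted p = 0.0613), and only 1 of the 4 was called in every setting. The summed SNORD116 level was low in Enza 1, at 33.3 CPM against 49.0 and 46.9 in Enza 2 and Enza 3. With CC-223+Enza it was 55.7 to 60.7 CPM, so Enza 1 adds to the size of these rises. SNORA12 and SNORA49 rose by 1.10 and 0.71. With CC-223 alone 9 SNORD fell, 5 of which also fell here (55.6% of 9 and 41.7% of 12), and the overlap over all features was not counted. SNORD falls numbered 7 without Enza 1, 20 without Enza 3 and 8 without CC-223+Enza 3, and SNORA falls 1, 9 and 3; without Enza 2 SNORA falls were 8. Adding NU7441 to Enza gave 0 calls among the members in edgeR (13 SNORD and 11 SNORA at an unadjusted p below 0.05), where 0.223% of all features rose and 0.157% fell, and 1 SNORA in DESeq2. That count was 7 without Enza 2 and 14 without Enza 3.

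In 22Rv1 the called H/ACA snoRNAs all rose with CC-115, at a share close to that of all features. The filter on low counts kept 70 SNORD and 55 SNORA of this line. Of these, 12 SNORA rose (21.8%) and 0 fell, and 3 SNORD rose (4.29%) and 5 fell (7.14%), where 20.2% of all 19392 features rose and 20.7% fell. Medians were 0.45 for SNORA and -0.27 for SNORD, beside -0.02 for all features. Among SNORD outside the SNORD116 cluster, the 38 under 100 bases had a median of -0.82, with 5 called lower (13.2%, below the share of all features), and the 12 of 100 bases or more a median of 0.49. In C4-2 these medians were -0.49 and -0.25. SNORA members are also longer, with a median of 135 bases against 91 for SNORD, so class and length cannot be told apart in this comparison.

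SNORD14E was at 1.97, 2.77 and 1.53 CPM in 22Rv1 Control and 1.02 and 0.451 with CC-115, and fell by 1.46 (SE 0.39, edgeR adjusted p = 0.0191). SNORD12C and SNORD83A fell by 0.93 and 0.90, SNORD101 by 0.96 and SNORD99 by 1.36 (SE 0.35, edgeR adjusted p = 0.0163), again with a risen host for SNORD99 (SNHG12, 2.29) and SNORD12C (ZFAS1, 2.48). Of the 5 SNORD falls 4 were shared with C4-2, 80.0% of the 5 and 14.8% of the 27 there. The overlap of the lines over all features was not counted. SNORA49 was at 14.2, 16 and 12.6 CPM in Control and 21.7 and 23.0 with CC-115, and rose by 0.65 (SE 0.17, edgeR adjusted p = 0.017). SNORA47 went from 4.42, 4.08 and 5.73 CPM to 8.66 and 11.8, a log2 change of 1.11 (SE 0.22, edgeR adjusted p = 0.00619). SNORA73B rose by 0.54, SNORA71A by 0.80, SNORA2C by 0.93 and SNORA7B by 0.91.

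With 2 CC-115 libraries, single libraries decided many 22Rv1 calls. Leaving out one CC-115 library leaves a lone sample that is assumed to vary like the Control libraries. Of the 20 calls, those of SNORA47 and SNORD116-19 kept their call in each omission. SNORD falls were 0 without CC-115 2, 0 without Control 2, 3 without Control 1, 11 without Control 3 and 10 without CC-115 1. SNORA rises were 3 without CC-115 2, 6 without Control 1 or Control 2, and 13 to 16 without the others, and SNORA falls were 4 without Control 3 and 3 without CC-115 1. SNORD14E lost its call without CC-115 2 or Control 2, with an edgeR adjusted p of up to 0.0867. SNORA49 lost its call without Control 1 or CC-115 2, with an edgeR adjusted p of up to 0.0741. Of 13 tested SCARNA members 9 rose and 0 fell, with a median of 0.72, where 20.2% of all features rose and 20.7% fell. The level of 7SK rose by 0.73. The particle genes stand beside the same shares of all features. In the C/D core 1 of 4 genes fell, NOP58 by 0.92. In the H/ACA core 3 of 4 fell, NOP10, DKC1 and NHP2 by 1.03, 0.67 and 0.51. Of 9 tested assembly factors 1 rose and 6 fell. Among 6 processing genes 0 rose and 2 fell, DBR1 by 1.19 and TGS1 by 1.01. XRN1 and XRN2, which rose in C4-2, averaged 15.6 and 140.5 CPM in Control and 9.93 and 108.1 with CC-115. By the interaction test 3 of the 4 C/D core changes were higher in 22Rv1, and 2 of the 6 processing changes lower.

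**Figure D5:**
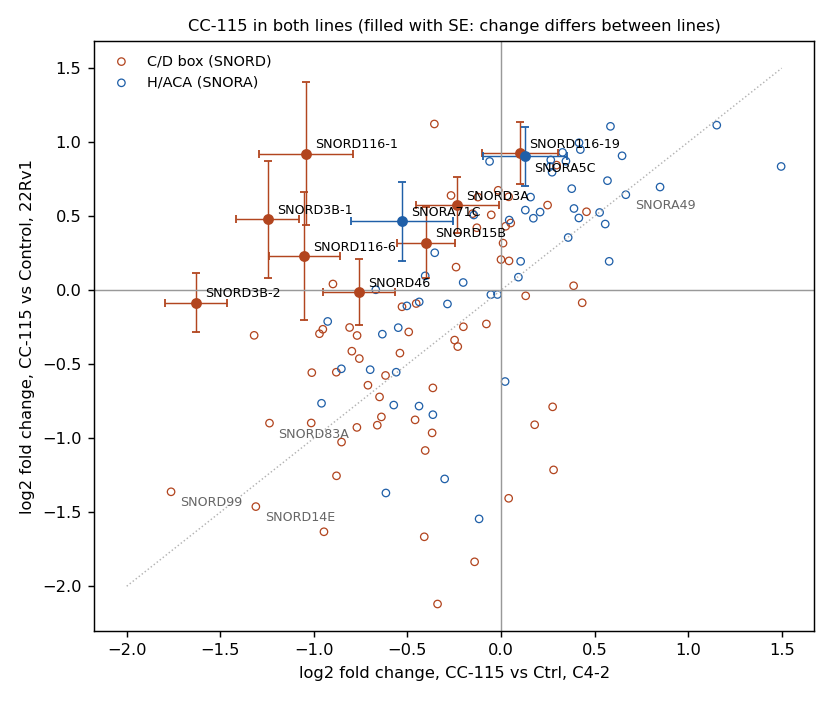
Log2 fold change with CC-115 in 22Rv1 (vertical axis) against C4-2 (horizontal axis) for the 125 members tested in both lines; red SNORD, blue SNORA, dotted line of equality. Filled points with SE bars are the 10 members whose change differed between the lines by the interaction test, all above the line; SNORD99, SNORD14E, SNORD83A and SNORA49 are named in grey.

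The CC-115 change differed between the lines for 10 members, each higher in 22Rv1: 8 SNORD and 2 SNORA. Of all features 15.2% were higher in 22Rv1 and 12.3% lower. In the same test 2 of 14 SCARNA were higher and 0 lower, with a median difference of 0.353. 7SK was higher by 0.29 (edgeR adjusted p = 0.0284). Short features and mitochondrial RNA made up 22.91 to 24.86% of counts in 22Rv1 Control and 30.02 to 32.03% with CC-115. In C4-2 they made up 12.61 to 16.13% in Ctrl and 12.52 to 13.04% with CC-115. The part of these shifts in the snoRNA differences was not tested. SNORD3B-2 was at 6.08, 6.71 and 6.99 CPM in 22Rv1 Control and 5.36 and 7.11 with CC-115, and its change differed from that in C4-2 by 1.59 (SE 0.185, edgeR adjusted p = 4.16e-05). SNORD3A held 12340, 7926 and 12560 CPM in Control and 14900 and 17720 with CC-115, a difference of the changes of 0.86 (SE 0.23, edgeR adjusted p = 0.0131). SNORD116-1 and SNORD116-6 differed by 2.03 and 1.30, but SNORD116-1 rests on 12.4 mean counts in 22Rv1. Of the 10, only SNORD3B-2 and SNORD116-19 kept their call with each library left out in turn. The calls of SNORD3A, SNORD3B-1 and SNORA71C were lost without 22Rv1 CC-115 2, with edgeR adjusted p of 0.105, 0.0754 and 0.09. Calls numbered 6 without C4-2 Ctrl 2 or C4-2 CC-115 2, 23 without 22Rv1 Control 3, 20 without 22Rv1 CC-115 1 and 5 without 22Rv1 CC-115 2. By sign alone, 39 of 70 SNORD were lower with CC-115 in both lines and 10 higher in both, and 29 of 55 SNORA were higher in both and 18 lower in both. Shared signs over all features were not counted.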

How the data were processed

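Total RNA was sequenced with a stranded ribosomal-depletion kit (TruSeq Stranded Total RNA Gold, per the labels' protocols). The authors deposited whole-number read counts per gene, 1 table per cell line, in hg19 coordinates. The submitters' processing notes name STAR 2.5.2a, featureCounts 1.5.0-p3 and DESeq2 1.14.1. How strand and multiply matching reads were treated, and which gene annotation was used, the labels do not say.

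The members and gene lists were chosen with earlier results of these data known. Named genes are the U3, U14, U8, U13 and U17 genes and SNORD22, the 6 most abundant members per class, up to 6 called rises and falls per comparison among members averaging at least 50 counts, members of hosts with at least 4, and 3 members on each side of the threshold. Others are named after their values were seen.

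Counts were filtered for low values, TMM-scaled and compared with edgeR 4.0.16 (quasi-likelihood model, robust, in R 4.3.3), in 1 fit of the 24 C4-2 libraries, 1 of the 5 22Rv1 libraries, and a joint fit for the difference of the CC-115 change (22Rv1 minus C4-2). Adjusted p is Benjamini-Hochberg over 22860, 19392 and 22922 features, with calls at 0.05. SE was derived from the log2 change and its F statistic, and 95% intervals use 1.96 SE. DESeq2 1.42.0, other scalings, filters and sample sets were alternatives. The fits were tested on simulated data. CPM are TMM-scaled within each line, so levels of both lines carry separate scalings. Replicate libraries were compared by chi-square and none were duplicates. Sequences are GENCODE release 29 transcripts matched by gene ID with the same length as the row. Same-numbered C4-2 libraries did not deviate together (30 pairs, correlations from -0.188 to 0.125), so no block entered that fit. In 22Rv1 the same-numbered pairs stood at 0.297 and -0.363, opposite in sign. No block entered the 22Rv1 and joint fits either, and counts with a block are given below.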

Additional observations from a re-analysis of the deposited data

Results flagged for a closer look

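The CC-115 change differed between 22Rv1 and C4-2 for 10 members by the interaction term of the joint edgeR fit. By the same term 15.2% of all features were higher in 22Rv1 and 12.3% lower, so such differences were not particular to snoRNAs. Each log2 difference below is 22Rv1 minus C4-2. Among the U3 rows, SNORD3B-1 differed by 1.77, SNORD3B-2 by 1.589 and SNORD3A by 0.856. In the SNORD116 cluster, SNORD116-1 differed by 2.032, SNORD116-6 by 1.302 and SNORD116-19 by 0.873. SNORD46 differed by 0.801 and SNORD15B by 0.774. Of the H/ACA members, SNORA71C differed by 1.038 and SNORA5C by 0.827.

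SNORD3B-2 and SNORD116-19 kept their call with each library left out, with adjusted p up to 0.000343 and 0.0332. SNORD116-1 lost its call without 22Rv1 CC-115 1 (0.0869). SNORD116-6 lost it in 5 omissions (up to 0.189), SNORD46 in 6 (up to 0.131), and SNORD15B and SNORA5C in 8 each (up to 0.112 and 0.203). SNORD116-6 held 1.48, 1.68 and 0.521 CPM in 22Rv1 Control and 1.27 and 1.70 with CC-115, so those groups overlapped.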

How the results depend on the processing

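Counts of called members are given here with the main count first. With DESeq2, NU7441 against Ctrl went from 0 to 1 and NU7441+Enza against Enza from 0 to 1. Without a low-count filter, NU7441+Enza against Enza went from 0 to 11, CC-115 against CC-223 from 24 to 14, CC-115 in 22Rv1 from 20 to 34 and the difference between lines from 10 to 5. With the stricter filter, CC-115 against Ctrl went from 47 to 30, against CC-223 to 15 and against NU7441 from 35 to 23. Counting only members with at least 50 counts gave 26 for CC-115 against Ctrl, 7 of 13 for Enza against Ctrl, 32 of 53 for CC-115+Enza against Enza, 12 for CC-115 against CC-223 and 22 for CC-115 against NU7441, since fewer members enter.

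Without Enza 1 and CC-115+Enza 1, counts were 9 for NU7441 against Ctrl, 28 (main 13) for CC-223 against Ctrl, 7 for Enza against Ctrl, 38 for CC-115 against CC-223 and 8 (main 2) for NU7441 against CC-223. With only the libraries compared, they were 2, 28, 0, 39 and 5 in that order, 20 for CC-115+Enza against Enza and 9 (main 26) for CC-223+Enza against Enza. The cause of these shifts was not tested.

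With 1 library left out, counts ran from 0 to 1 for NU7441 against Ctrl, 2 to 27 for Enza against Ctrl, 0 to 14 for NU7441+Enza against Enza, 17 to 40 for CC-223+Enza against Enza, 10 to 16 for CC-115 against CC-223, 5 to 35 for CC-115 in 22Rv1 and 5 to 23 for the difference.

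The replicate numbers pair no samples by the labels. With a replicate block, CC-115 in 22Rv1 called 45 members and the difference between lines 17, and the other counts stayed within 1.5 times.

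A few named members reversed. For SNORD3C: CC-115+Enza against Enza in C4-2, the change was 0.205 without Enza 1 and CC-115+Enza 1, and -1.197 to 0.255 with 1 library left out. For SNORD17: CC-115+Enza against Enza in C4-2, it was 0.772 and up to 0.936. For SNORA71A: CC-115+Enza against Enza in C4-2, it was 0.061, and -0.878 to 0.16. For SNORD3C: CC-223+Enza against Enza in C4-2, it was 0.038, and -1.423 to 0.051. For SNORD17: CC-223+Enza against Enza in C4-2, it was 0.479, and -0.981 to 0.489. Low counts limit 74 members, those averaging under 50.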
